A study of Homo sapiens with 17 samples.

Results

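Blood cells that had come off into suspension 60 h after re-plating were compared with the endothelium from which the culture was started. The pair was chosen by its labels: the suspended 60 h library and the 0 h library of the culture made with vitamin C, 2 of the 17 libraries of the series. Both trace back to H1, a line of human embryonic stem cells, and in both the endothelium had been sorted as positive for a GATA2/eGFP reporter and had been made with vitamin C. The 0 h library holds the sorted endothelial cells, with no time in the re-plated culture. The suspended library is labelled as haematopoietic cells derived from such endothelium, taken as the cells not attached at 60 h. Other libraries are set beside the pair only for their levels: the mixed cultures made with vitamin C at 24, 36, 48 and 60 h, the adherent mixture at 60 h, the suspended cells at 96 h, the 0 h endothelium made without vitamin C, and 4 further libraries of sorted endothelium, used as a range because title and description disagree on vitamin C for a pair of them. Each group of the pair is 1 library of 1 cell line, and no label says whether the 2 came from the same culture, so no difference could be tested against replicate error.

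Blood stem and progenitor cells first arise from a specialised endothelium, the haemogenic endothelium, in what is called the endothelial-to-haematopoietic transition. A flat cell held to its neighbours by VE-cadherin rounds up, leaves the layer and takes on blood cell surface proteins. RUNX1, GATA2, TAL1 and GFI1 are transcription factors known to act in this step, while SOX17, ERG and KLF2 are known for endothelial identity. The first blood cells of pluripotent stem cell cultures are often of red cell and megakaryocyte type, with embryonic and fetal globins.

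Levels are given as CPM, each gene's read count scaled by the total of its library. A gene was called measured when the higher of its levels in the pair was 5 CPM or more. It was called gained or lost when it was at least 4-fold higher or lower in the suspended cells, and kept when the libraries were within 1.5-fold, on a ratio with 0.5 CPM added. Folds are printed with exact 95% intervals of the ratio, which cover counting error alone, as no molecular identifiers separate molecules from copies of them. The 0 h library held 8710906 reads and the suspended library 6957056, so 1 read stood for 0.115 and 0.144 CPM and 3 reads, the limit set by a count of 0, for 0.344 and 0.431 CPM. Mitochondrial genes took 4.75% of the reads at 0 h and 7.44% in the suspended cells. Totals without mitochondrial reads moved the median log2 ratio of all measured genes by 0.04.

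Because the gained genes include GATA1 and several of its well-known erythroid targets, the sequence before the start of 3 gained red cell genes is shown beside that of 2 lost endothelial genes. KLF1 is an erythroid transcription factor, ALAS2 the erythroid enzyme of the first step of haem synthesis, and RHAG an ammonia channel of the red cell membrane. ERG is an ETS transcription factor of endothelium and TEK the angiopoietin receptor. Each line holds the 250 bases before a start site in RefSeq (GRCh38.p14), 5′ to 3′ on the gene's strand. Capitals mark matches to AGATAA or CTTATC, letters recognised by GATA factors, on either strand. RHAG, ERG and TEK were picked for display after the matches were known.
KLF1, chr19:12887202-12887451, minus strand: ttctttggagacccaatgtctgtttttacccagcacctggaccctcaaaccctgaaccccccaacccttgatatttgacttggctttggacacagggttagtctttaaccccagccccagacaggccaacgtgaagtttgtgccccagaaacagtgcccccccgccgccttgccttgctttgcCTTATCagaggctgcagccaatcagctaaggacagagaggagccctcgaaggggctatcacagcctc
ALAS2, chrX:55030978-55031227, minus strand: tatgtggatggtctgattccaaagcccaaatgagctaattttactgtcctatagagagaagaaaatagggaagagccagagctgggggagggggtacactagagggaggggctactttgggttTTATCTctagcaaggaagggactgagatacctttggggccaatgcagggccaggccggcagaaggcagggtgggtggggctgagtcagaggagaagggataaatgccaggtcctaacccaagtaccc
RHAG, chr6:49636840-49637089, minus strand: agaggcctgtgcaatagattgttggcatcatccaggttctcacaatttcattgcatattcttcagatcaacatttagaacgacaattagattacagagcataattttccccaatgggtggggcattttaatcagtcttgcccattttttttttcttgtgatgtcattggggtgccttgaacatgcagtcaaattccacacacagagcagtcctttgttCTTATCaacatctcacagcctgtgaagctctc
ERG, chr21:38498478-38498727, minus strand: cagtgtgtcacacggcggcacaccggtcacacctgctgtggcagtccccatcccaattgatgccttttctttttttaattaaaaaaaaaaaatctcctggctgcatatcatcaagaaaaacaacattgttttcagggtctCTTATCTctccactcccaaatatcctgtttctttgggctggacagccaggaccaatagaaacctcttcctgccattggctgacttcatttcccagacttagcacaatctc
TEK, chr9:27109200-27109449, plus strand: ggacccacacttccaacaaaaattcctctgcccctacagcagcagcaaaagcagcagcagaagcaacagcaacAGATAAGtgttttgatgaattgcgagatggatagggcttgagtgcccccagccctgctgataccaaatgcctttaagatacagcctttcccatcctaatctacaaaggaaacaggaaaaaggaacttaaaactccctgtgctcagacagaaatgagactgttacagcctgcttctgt

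KLF1 stood at 4.36 CPM at 0 h and 93.7 CPM in the suspended cells, ALAS2 at 0.115 and 49.9 CPM, and RHAG at 46.8 and 233 CPM. The match lay 67 bases before the start in KLF1, 127 in ALAS2 and 32 in RHAG. ERG went from 325 to 37.7 CPM and TEK from 606 to 76.0 CPM, with matches beginning 110 and 177 bases before a start, so the letters stand before genes of both classes. Among gained red cell genes with a RefSeq window 6 of 8 held them (ALAS2, CPOX, GYPB, GYPE, KEL and RHAG, of which GYPB and GYPE are near-identical copies), against 2 of 8 gained haematopoietic transcription factors, 2 of 8 gained leukocyte genes, 1 of 4 gained platelet genes and 1 of 1 gained globin. Among lost genes 1 of 4 endothelial transcription factors and 2 of 6 endothelial surface genes held them. Over all gained genes the share was 20.4% of genes, over all lost 19.4% and over all measured protein-coding genes 10.8%.

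Over whole classes the letters were about as frequent in gained as in lost genes. RefSeq windows of 300 bases, 250 before and 50 after a start, were found for 269 of 369 gained protein-coding genes, 470 of 641 lost and 5399 of 6453 kept. AGATAA or CTTATC, which overlap in AGATAAG, stood in 14.5% of the windows of gained genes, 13.1% of lost, 7.33% of kept and 8.19% of all measured protein-coding genes, and in 13.55% of all 34961 windows, which include genes not expressed here. The other shares are given in the same order. The ETS letters CAGGAAGT were found in 4.66%, 2.003%, 3.38%, 3.20% and 3.08%, and the other ETS letters ACCGGAAG in 0.699%, 0.501%, 4.70%, 3.73% and 2.17%. For the RUNX letters TGTGGT the shares were 13.3%, 10.0%, 9.61%, 9.83% and 13.1%, and for the SOX letters ATTGTT 4.90%, 10.1%, 5.35%, 5.99% and 10.1%. The TATA letters TATAAA gave 9.79%, 9.89%, 5.06%, 5.89% and 11.5% and the E-box CACGTG 8.86%, 5.76%, 9.66%, 9.30% and 7.27%. Median GC content was 63.3%, 61.7%, 65.0%, 65.0% and 58.7%. Kept genes thus had the fewest GATA and TATA letters and the most ACCGGAAG, and lost genes had more ATTGTT than gained ones. Each share is of windows, several of which can belong to 1 gene and overlap, and GC content differs between the classes.

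Most of the transcriptome was common to the endpoints. Of 12842 measured genes, 7329 (57.1%) were kept, 411 (3.20%) were gained and 719 (5.60%) were lost, while 2324 and 2059 lay between and were higher or lower. The median log2 ratio was 0.06. Kept genes took 60.1% of the reads at 0 h and 63.5% in the suspended cells. Gained genes went from 0.426% to 3.49% of the reads and lost genes from 8.06% to 1.175%. At 0 h 134 of the gained genes were under 1 CPM and 26 had no read, and in the suspended cells 159 of the lost genes were under 1 CPM and 22 had no read. The fold that separates the classes cuts through a continuum: the nearest gained gene had a log2 ratio of 2.0003 and the nearest outside 1.994, with 81 genes between 4- and 5-fold higher and 189 between 3- and 4-fold. On the other side 207 and 326 genes lay in the same ranges. A gene under 1 CPM in 1 library counts as measured only at 5 CPM or more in the other, so such genes had to differ. The counts and medians of lists below therefore describe these libraries and are not support for a difference. They are to be read beside the shares of all measured genes, 3.20% gained, 5.60% lost and 57.1% kept.

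**Figure D1:**
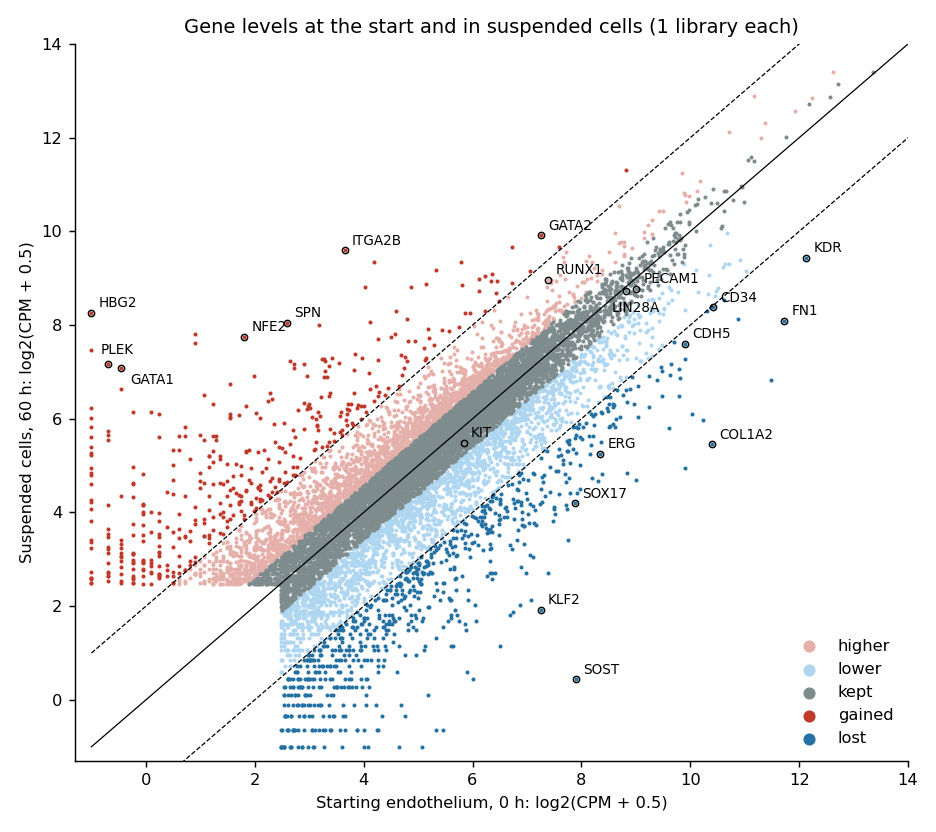
Level of each measured gene in the starting endothelium (x axis) and in the suspended cells at 60 h (y axis), both as log2(CPM + 0.5), 1 library each; the solid line marks equal levels, the dashed lines 4-fold, and colours the classes. The 411 gained genes lie above the upper dashed line, with HBG2, PLEK and GATA1 at the left edge, and the 719 lost genes below the lower one, with SOST and KLF2 far to the lower right.

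The suspended cells had gained regulators of red cells and megakaryocytes, the myeloid factor SPI1 and other blood factors such as IKZF1 and RUNX3. Of 24 measured haematopoietic transcription factors 10 (41.7%) were gained, 8 higher, 4 kept, 2 lower and none lost, with a median log2 ratio of 1.73. Of all measured genes 3.20% were gained and 5.60% lost. GATA1 (ENSG00000102145, chromosome X, 48786554 to 48794311), the master regulator of red cells and megakaryocytes, had 2 reads at 0 h, 0.230 CPM, and 136 CPM in the suspended cells. It stood at 2.25, 5.45, 14.7 and 26.5 CPM in the mixed culture at 24, 36, 48 and 60 h, at 3.45 CPM in the adherent cells and at 291 CPM in the suspended cells at 96 h. The suspended libraries were thus above every mixed library, and the adherent cells lay between the 24 and 36 h values.

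NFE2, a transcription factor of platelet formation, stood at 2.98 CPM at 0 h and 216 CPM in the suspended cells, 72.2-fold higher (49.1 to 111). SPI1, which encodes the myeloid factor PU.1, went from 6.08 to 144 CPM, 23.7-fold (18.0 to 31.8). KLF1 was 21.5-fold higher (15.5 to 30.6). IKZF1, the lymphoid and myeloid factor Ikaros, went from 10.2 to 158 CPM and RUNX3 from 1.38 to 13.8 CPM. GATA2 (ENSG00000179348, chromosome 3, 128479427 to 128493185), whose reporter was the sort marker of the starting cells, stood at 153 CPM at 0 h and was 6.29-fold higher (5.93 to 6.68) at 965 CPM, but came down to 309 CPM in the suspended cells at 96 h.

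Of the other factors known for the transition, RUNX1, GFI1 and TAL1 differed by less than 4-fold. RUNX1 stood at 167 CPM at 0 h and 502 CPM in the suspended cells, 2.999-fold higher (2.82 to 3.19), and at 153 to 181 CPM in the mixed culture and 111 CPM in the adherent cells. GFI1 was 2.97-fold higher (2.48 to 3.56), GFI1B 3.68-fold (3.30 to 4.11), MYB 2.54-fold (2.33 to 2.77) and TAL1 1.83-fold (1.74 to 1.93). All of these were therefore present before re-plating, at 20.2, 49.9, 91.0 and 274 CPM. LMO2, the partner of TAL1, was kept at 264 and 336 CPM, as were MEIS1 at 163 and 181 CPM and the myeloid factor CEBPB at 31.6 CPM in both. Other myeloid factors were not measured: CEBPA stood at 0.230 and 0.287 CPM, CEBPE had no read at either end and IRF8 had 1 read, in the suspended cells.

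Endothelial transcription factors moved the other way. Of 20 measured, 8 (40%, against 5.60% of all measured genes) were lost. Another 6 were lower, 6 kept and none gained, with a median log2 ratio of -1.25. SOX17, an arterial and haemogenic factor, stood at 235 CPM at 0 h, at 91.9 to 119 CPM in the mixed culture from 24 to 60 h, at 104 CPM in the adherent cells and at 17.8 CPM in the suspended cells, 13.2-fold lower (11.01 to 16.0) than at the start. At 96 h it had a single read. SOX7 was 9.46-fold lower (7.97 to 11.3), ERG 8.64-fold (7.61 to 9.85) and ETS1 5.57-fold (5.21 to 5.96).

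KLF2, a factor induced by blood flow, went from 152 to 3.31 CPM, 46.05-fold lower (30.6 to 72.9), and its relative KLF4 went from 18.8 to 1.01 CPM. Both were already low in the mixed culture, KLF2 at 20.2 to 52.5 CPM and KLF4 at 0.611 to 2.41 CPM. Kept endothelial factors included HOXB9 (186 and 159 CPM), TCF4 (102 and 139 CPM), MEF2A (93.4 and 80.5 CPM) and EPAS1 (64.3 and 82.2 CPM).

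Put on a scale per length, CPM per kb of exons, the order of the 50 factors of these lists changed at the top. At 0 h ETS1, SOX18 and SOX17 were the highest, at 112, 111 and 100.5 CPM per kb, and GATA2 was the 14th at 34.4. In the suspended cells GATA2 came 1st at 217 CPM per kb, ahead of LDB1 at 109, LMO2 at 108, GATA1 at 90.4 and TAL1 at 88.2. LDB1, LMO2 and TAL1 form a complex with GATA factors. GATA1 had stood 44th of 50 at 0 h. SOX18 (11th), LDB1 and the sequences' RHAG were named after their values were seen.

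**Figure D2:**
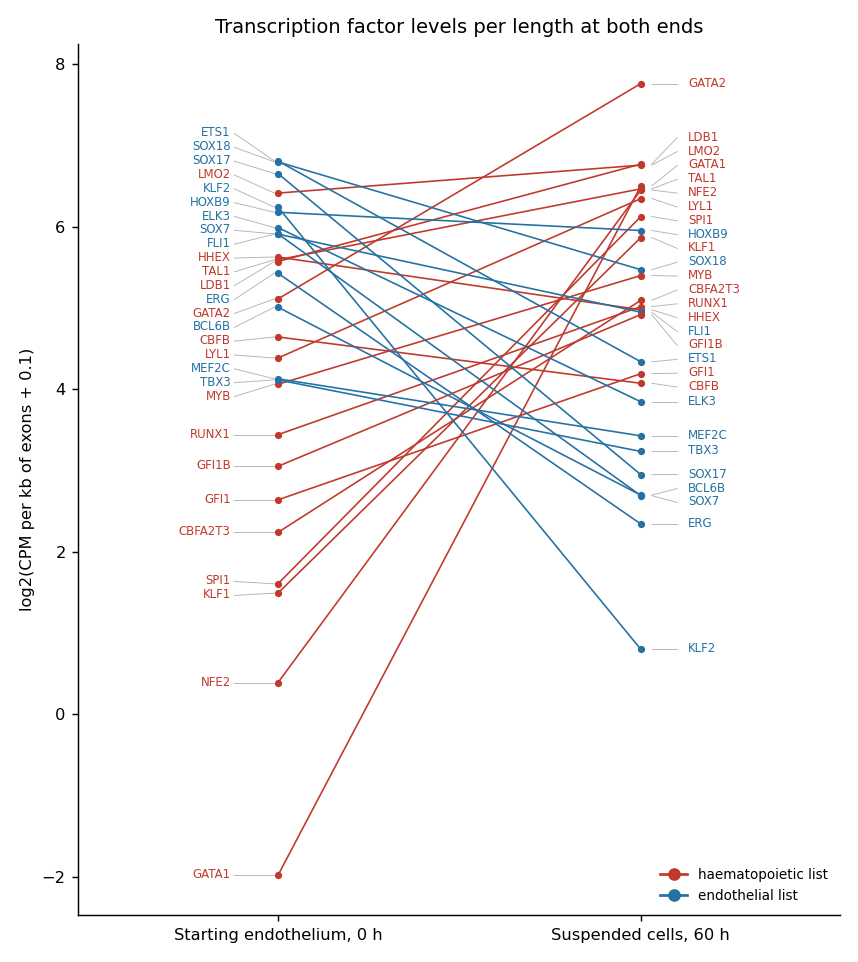
Levels per exon length, as log2(CPM per kb of exons + 0.1), of transcription factors among the 20 highest at either endpoint, with red lines for the haematopoietic list and blue lines for the endothelial list. GATA1 and NFE2 have the steepest upward lines and KLF2 the steepest downward line, and GATA2 stands on top in the suspended cells.

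Globin genes were nearly uncounted at 0 h, with at most 1.38 CPM for any of the 11 list members. The 8 that were measured were so through the suspended library alone, which fixes most of their class, so their levels are given as a description. HBG2, a fetal globin, had no read at 0 h and at 24 h, 2.54, 10.7 and 49.2 CPM at 36, 48 and 60 h, 4.07 CPM in the adherent cells and 307 CPM in the suspended cells, at least 892-fold higher than at 0 h. By 96 h it stood at 4715 CPM. HBE1, the embryonic beta-type globin, went from 1.38 to 225 CPM, HBD from 0 to 177 CPM and HBZ, the embryonic alpha-type globin, from 0 to 74.7 CPM. The adult HBB was at 3.16 CPM, HBM at 0.862 CPM and the globin chaperone AHSP at 0.144 CPM in the suspended cells, and none of these was measured. Summed over the list, globins took 0.0913% of the suspended library at 60 h and 1.06% at 96 h. Counts of HBG1 and HBG2, and of HBA1 and HBA2, are uncertain because their sequences are nearly identical, and over 50% of the exonic length of HBG2, HBE1 and ITGB3 is shared with another annotated gene.

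The red cell genes were gained with them. Of 18 measured membrane and haem synthesis genes 12 (66.7%, against 3.20% of all measured genes) were gained. Another 2 were higher, 2 kept, 2 lower and none lost (median 2.29). GYPB and GYPE, of the glycophorin family, went from 1.84 to 49.3 CPM and from 6.08 to 135 CPM, counts that are uncertain because such near-identical genes can share reads. TFRC, the transferrin receptor that brings in iron, went from 34.9 to 468 CPM, 13.4-fold (11.9 to 15.1). EPB41, a gene of the membrane skeleton, was kept at 270 and 380 CPM.

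Of 16 platelet lineage genes 10 were measured: 6 (60%, against 3.20% of all measured genes) were gained, 3 higher and 1 kept (median 3.32). GP1BA (19.4 to 65.0 CPM) and GP9 (2.07 to 6.32 CPM) were among the higher ones. PPBP and TREML1 reached only 0.719 and 2.01 CPM in the suspended cells, and GP1BB, GP6 and MPIG6B had no read at either end. Of this list 1 member was hardly counted at 0 h although the sorted libraries list it. No count of 0 for GP1BB, GP6 or MPIG6B is therefore read as absence. ITGA2B is counted on the receptor and integrin lists instead. ITGA2B (ENSG00000005961, chromosome 17, 44372180 to 44389505), which encodes CD41, the earliest surface protein of emerging blood cells, stood at 12.1 CPM at 0 h, at 18.7, 40.9, 71.5 and 143 CPM in the mixed culture and at 774 CPM in the suspended cells, 64.2-fold higher (52.9 to 78.7). Its partner ITGB3 went from 1.38 to 197 CPM. PLEK, a platelet signalling protein, went from 1 read to 142 CPM, a ratio of 1241 with a counting interval of 222 to 49059. TUBB1, the platelet tubulin, stood at 0.918 and 31.9 CPM, and at 728 CPM at 96 h. F2R, the thrombin receptor of platelets and endothelium, was kept at 684 and 557 CPM.

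Genes shared by leukocytes were higher as a group, 12 of 23 measured gained, 9 higher, 2 kept and none lost or lower (median 2.24). The gained share was 52.2%, against 3.20% of all measured genes. SPN (ENSG00000197471, chromosome 16, 29662979 to 29670876), which encodes CD43, stood at 5.51 CPM at 0 h, at 49.5 CPM in the mixed culture at 60 h, at 8.13 CPM in the adherent cells and at 264 CPM in the suspended cells, 47.9-fold higher (36.0 to 65.3). CORO1A, an actin regulator of blood cells, went from 0.918 to 39.8 CPM, the integrin ITGA4 from 7.003 to 143 CPM and the kinase SYK from 9.18 to 155 CPM. PTPRC, which encodes CD45 and marks nearly all mature leukocytes, had no read at 0 h and 22 reads, 3.16 CPM, in the suspended cells, below the level called measured.

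Markers of finished myeloid, mast and lymphoid cells were mostly near 0. Of 17 myeloid genes 4 were measured: TYROBP, a signalling adaptor, was gained (0 to 18.3 CPM), lysozyme (LYZ, 9.07 to 35.8 CPM) and the receptor subunit FCER1G (22.3 to 57.1 CPM) were higher, and the scavenger receptor MRC1 was lost (218 to 26.3 CPM). The neutrophil granule genes ELANE and PRTN3 had no read at either end and MPO had 3 reads, all in the suspended cells. The myeloid gene AIF1, with the receptor genes IL3RA and CSF2RA and the endothelial NOTCH4, had at most 1 read in either library although the sorted libraries list them, and of the 93 genes of the extended major histocompatibility complex with at least 5 TPM in all 4 sorted libraries 86 were under 1 CPM at 0 h, so no absence can be read for them. Of 10 mast cell and eosinophil genes HDC, the histamine-forming enzyme, went from 0.115 to 46.1 CPM and FCER1A from 0.459 to 6.32 CPM. Of 16 lymphoid genes 4 were measured: CD3D, CD7 and NKG7 were gained, each at 5.46 to 6.18 CPM in the suspended cells, and CD79B was lower (20.9 to 4.89 CPM), while CD3E, CD2, PAX5 and DNTT had no read at either end.

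Receptors for blood growth factors divided. Of 15 measured cytokine receptor and progenitor surface genes 7 were gained, 4 lost and 4 kept, with a median log2 ratio of 0.16. Gained and lost shares were 46.7% and 26.7%, against 3.20% and 5.60% of all measured genes. CSF2RB, the shared beta chain of the receptors for GM-CSF, interleukin 3 and interleukin 5, went from 9.76 to 89.1 CPM, CSF1R from 0.574 to 15.5 CPM and the myeloid lectin CD33 from 8.50 to 70.4 CPM. Kept were KIT, the stem cell factor receptor (56.6 and 44.6 CPM), and EPOR, the erythropoietin receptor (40.1 and 41.5 CPM). CD34, a sialomucin of both endothelium and blood progenitors, went from 1374 to 334 CPM, 4.12-fold lower (3.94 to 4.31), the endothelial protein C receptor PROCR from 130 to 15.1 CPM and THY1 from 503 to 78.8 CPM. FLT3 had no read at either end.

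**Figure D3:**
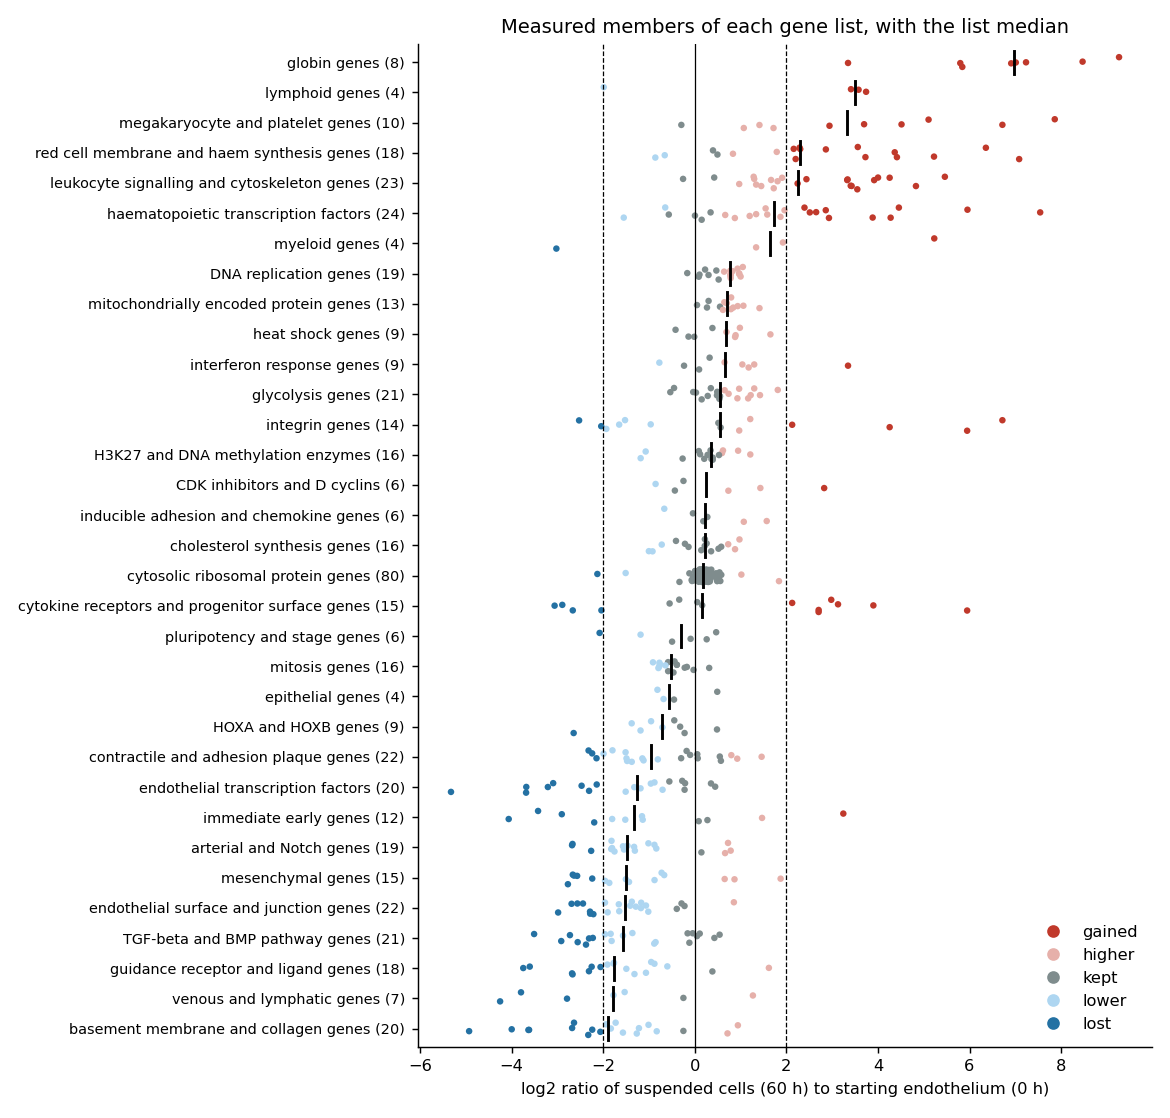
log2 ratio of suspended cells to starting endothelium for each measured member of the gene lists with at least 4 measured (points, coloured by class) with the list median (black bar) and the number measured in brackets; dashed lines mark 4-fold and the solid line no difference. Globin, platelet, red cell, leukocyte and haematopoietic factor lists lie to the right, basement membrane, guidance, TGF-beta and endothelial lists to the left, and ribosomal protein genes close to 0.

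Endothelial surface genes were lower but still present. Of 22 measured, 7 were lost, 11 lower, 3 kept, 1 higher and none gained (median -1.53). The lost share was 31.8%, against 5.60% of all measured genes. KDR (ENSG00000128052, chromosome 4, 55078259 to 55125595), the receptor for VEGF, stood at 4489 CPM at 0 h, at 5752, 4765, 4512 and 4082 CPM in the mixed culture, at 4699 CPM in the adherent cells and at 694 CPM in the suspended cells, 6.47-fold lower than the start (6.28 to 6.67). CDH5 (ENSG00000179776, chromosome 16, 66366622 to 66404786), VE-cadherin, went from 952 to 194 CPM, 4.90-fold (4.63 to 5.19), with 1004 to 1148 CPM in the mixed culture from 24 to 60 h. At 96 h the suspended cells held 81.1 CPM of KDR and 4.25 CPM of CDH5. The list summed to 13060 CPM at 0 h, 20108 CPM in the adherent cells, 3913 CPM in the suspended cells at 60 h and 1934 CPM at 96 h. In these bulk libraries fewer cells of a type and less RNA per cell cannot be told apart, and the share of endothelial cells among the suspended ones was not measured.

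TEK (7.97-fold lower, 7.29 to 8.73), the junction-associated MMRN2 (5.95-fold, 5.52 to 6.41), RASIP1 and the nitric oxide synthase NOS3 were also lost. PECAM1, an adhesion molecule of endothelium that platelets and leukocytes carry as well, was kept at 513 and 439 CPM, as were ESAM at 276 and 209 CPM and ICAM2 at 65.9 and 53.8 CPM. Of 19 arterial and Notch genes 3 were lost, the Notch target HEY2 (57.9 to 11.6 CPM), the glycosyltransferase LFNG (65.0 to 9.77 CPM) and UNC5B (420 to 65.0 CPM). The lost share of this list was 15.8%, against 5.60% of all measured genes. Another 12 were lower, 3 higher and CXCR4 kept, at 27.6 and 30.5 CPM (median -1.47). CXCR4 had however stood at 58.2 to 250 CPM in the mixed culture and at 304 CPM in the adherent cells. Of 7 venous and lymphatic genes the apelin receptor APLNR (780 to 55.6 CPM), the semaphorin and VEGF co-receptor NRP2 (1202 to 62.5 CPM) and the lymphatic receptor FLT4 (393 to 56.3 CPM) were lost. The lost share of these 7 was 42.9%, against 5.60% of all measured genes.

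Matrix genes had the lowest median, -1.89, of the lists with at least 4 measured members. Of 20 basement membrane and collagen genes 9 (45%, against 5.60% of all measured genes) were lost. Another 8 were lower, 2 higher and 1, LAMB2, kept. COL1A2, a chain of type I collagen, stood at 1343 CPM at 0 h, at 190, 118, 101 and 91.3 CPM in the mixed culture, at 98.7 CPM in the adherent cells and at 43.6 CPM in the suspended cells, 30.8-fold lower than at 0 h (27.5 to 34.7). FN1, fibronectin, went from 3383 to 272 CPM, 12.4-fold (11.9 to 13.05), with 888 to 1554 CPM in the mixed culture from 24 to 60 h. NID2, which links basement membrane networks, was 16.3-fold lower (14.1 to 18.9) and COL5A2 12.5-fold (10.7 to 14.7). Unlike KDR and CDH5, COL1A2 was well below the start in the mixed and adherent cells too, and FN1 in the mixed culture. The list as a whole was not: it summed to 14995 CPM at 0 h and 12164 to 13028 CPM in the mixed culture. Its sum was 14435 CPM in the adherent cells and 4345 CPM in the suspended cells.

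Integrins divided. Of 14 measured, ITGA2B, ITGB3, ITGA4 and ITGA6 were gained, ITGA9 and ITGB5 lost, and the list had a median of 0.54, with 4 lower, 2 higher and 2 kept. The gained and lost shares were 28.6% and 14.3%, against 3.20% and 5.60% of all measured genes. ITGA6 stood at 13.3 and 59.8 CPM, but at 71.1 to 132 CPM in the mixed and adherent cells. Of 18 guidance genes 7 were lost, 9 lower, 1 higher and 1 kept (median -1.77). Among the lost were the netrin receptor UNC5C (13.1-fold, 9.59 to 18.3) and the SLIT receptor ROBO1 (4.996-fold, 4.56 to 5.48). The lost share of the guidance list was 38.9%, against 5.60% of all measured genes. Of 22 contractile and adhesion plaque genes 3 were lost (CALD1, PALLD and CNN1), 9 lower, 3 higher and 7 kept (median -0.96). The lost and kept shares were 13.6% and 31.8%, against 5.60% and 57.1% of all measured genes. Kept were among others FLNA at 901 and 1315 CPM and TLN1 at 772 and 1146 CPM, both also abundant in platelets.

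Genes of TGF-beta and BMP signalling divided between lost, lower and kept. Of 21 genes of the pathway 7 (33.3%, against 5.60% of all measured genes) were lost. Another 7 were lower, 7 kept and none gained or higher (median -1.57). The BMP ligand BMP4 (26.2 to 4.02 CPM), its modulator BMPER (105 to 8.77 CPM), SMAD9, the inhibitory SMAD7, and the classical BMP targets ID1 (301 to 57.5 CPM) and ID3 (289 to 43.1 CPM) were lost, and so was the ligand TGFB2 (7.23 to 1.15 CPM). ID2 was kept at 90.1 and 93.1 CPM and the BMP mediator SMAD1 at 21.2 and 19.0 CPM. Of the receptors, ENG (342 to 87.2 CPM), ACVRL1 (143 to 48.0 CPM) and TGFBR3 (96.4 to 26.6 CPM) were lower, and TGFBR1 and TGFBR2 kept. TGFB1 stood at 426 and 573 CPM, TGFBR1 at 103 and 150 CPM and TGFBR2 at 93.9 and 86.4 CPM. ID1 and ID3 did not differ between 0 h and the later attached libraries by more than 1.5-fold: ID1 was at 233 to 411 CPM there and ID3 at 233 to 342 CPM.

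Some genes known from other tissues were present at the start. SOST, an inhibitor of BMP and Wnt signalling known from bone, had the lowest log2 ratio (-7.45) among genes with at least 20 CPM, going from 238 to 0.862 CPM, 276-fold lower (127 to 754). It stood at 47.3, 19.1, 8.71 and 7.32 CPM in the mixed culture, at no read at 96 h and at 646 CPM in the 0 h library without vitamin C. XIRP1 and TRDN, genes of striated muscle, went from 43.3 CPM to 1 read and from 33.3 CPM to none, the latter at least 77.2-fold. The cardiac actin ACTC1 (167 to 6.04 CPM) and the cardiac factor NKX2-5 (59.8 to 4.60 CPM) were lost too, whereas MYL4, a myosin light chain of embryonic heart, was gained (5.74 to 150 CPM). The 10 cardiac and smooth muscle genes summed to 247 CPM at 0 h and 165 CPM in the suspended cells, of which MYL4 made up 5.74 and 150 CPM. Of the markers on that list TNNT2 and MYH6 stood at 2.41 and 0.918 CPM at 0 h, and MYH11 had no read at either end. Sums were 9.87 and 1.29 CPM for 8 liver genes and 500 and 333 CPM for 9 epithelial genes. Most of the epithelial sum came from KRT8 (263 and 149 CPM) and KRT18 (201 and 146 CPM). The epithelial markers EPCAM (7.46 and 4.46 CPM) and CDH1 (2.98 and 0.287 CPM) were low. Whether cells of other tissues were present and had a part in the lost genes was not tested. Among 15 measured mesenchymal genes, of which THY1, COL1A1 and COL3A1 also stand on other lists, 5 were lost, 7 lower and 3 higher (median -1.51). Vimentin (VIM) was lower, at 2091 and 572 CPM. The lost share of the mesenchymal list was 33.3%, against 5.60% of all measured genes.

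Immediate early genes, which respond within minutes to handling and growth signals, were lower in the suspended cells. Of 12 measured, 4 were lost, FOS (284 to 37.5 CPM), FOSB (138 to 7.76 CPM), DUSP1 (142 to 12.8 CPM) and JUN (121 to 25.9 CPM), 4 lower, 2 kept (JUNB and JUND) and 1 higher. The lost share was 33.3%, against 5.60% of all measured genes. FOS stood at 451 CPM in the adherent cells, 35.7 CPM in the mixed culture at 24 h and 723 to 1054 TPM (a length-scaled share of transcripts) in the 4 sorted libraries, so its level varied as much among attached libraries as between the endpoints. MYC, on the same list but known as a driver of growth, was gained, from 23.3 to 225 CPM, 9.65-fold (8.33 to 11.2), and stood at 26.1 to 59.6 CPM in the later attached libraries with vitamin C.

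Genes of cell division were expressed at both ends. Of 19 DNA replication genes 12 were higher and 7 kept, with none gained, lost or lower (median 0.78). Of 16 mitosis genes 10 were kept and 6 lower (median -0.53). The kept shares were 36.8% and 62.5%, against 57.1% of all measured genes. MCM3 stood at 166 and 230 CPM, MKI67 at 482 and 366 CPM and CENPF at 308 and 302 CPM. Between the endpoints the mitosis levels were lower: MKI67 went down to 255 CPM in the mixed culture at 60 h and 170 CPM in the adherent cells. Summed, the mitosis list was 3456 CPM at 0 h, 1568 CPM in the mixed culture at 60 h, 1164 CPM in the adherent cells and 2526 CPM in the suspended cells. The replication list summed to 1726 CPM at 0 h and was first higher in the mixed culture, at 2164 CPM at 24 h. It then stood at 1365 CPM in the mixed culture at 60 h, 1160 CPM in the adherent cells and 2558 CPM in the suspended cells. CCND3, a D cyclin prominent in blood cells, was gained, from 74.5 to 531 CPM, 7.12-fold (6.55 to 7.76), while CCND2 and the inhibitor CDKN1B were kept.

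Of 10 genes that mark pluripotency or the embryonic stage 6 were measured: 4 were kept (66.7%, against 57.1% of all measured genes), 1 lost and 1 lower. The pluripotency genes POU5F1, NANOG, SOX2 and TDGF1 were not measured. POU5F1 and NANOG stood at 0.115 CPM and TDGF1 at 1.38 CPM at 0 h, with no read in the suspended cells. SOX2 had no read at 0 h and 0.144 CPM in the suspended cells. LIN28A (ENSG00000131914, chromosome 1, 26410778 to 26429722), an RNA-binding protein of embryonic cells, stood at 453 CPM at 0 h and 425 CPM in the suspended cells, a ratio of 1.07 (1.02 to 1.12), but at 204, 152, 176 and 144 CPM in the mixed culture and 91.7 CPM in the adherent cells. LIN28B (155 and 214 CPM), IGF2BP1 (466 and 558 CPM) and IGF2BP3 (185 and 131 CPM) were kept, while DPPA4 was lost (152 to 35.5 CPM) and ZFP42 lower (10.4 to 4.31 CPM). KIT had the same course as LIN28A, with 18.5, 10.1, 12.5 and 12.9 CPM in the mixed culture and 10.7 CPM in the adherent cells between 56.6 CPM at the start and 44.6 CPM in suspension. Of 20 HOXA and HOXB genes 9 were measured, with 4 kept, 4 lower and HOXA13 lost, and 8 had no read at either end. The kept and lost shares of this list were 44.4% and 11.1%, against 57.1% and 5.60% of all measured genes.

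The histone and DNA methylation enzymes, which the study's title names through KDM6, were kept in 10 of 16 cases, with 4 higher, 2 lower and none gained or lost (median 0.35). The kept share, 62.5%, was near the 57.1% of all measured genes. KDM6A, a demethylase of histone H3 lysine 27, stood at 44.0 CPM at 0 h, at 34.0 to 43.0 CPM in the mixed culture and at 57.8 CPM in the suspended cells, 1.31-fold (1.14 to 1.52). The related KDM6B was higher, at 81.0 and 124 CPM, 1.53-fold (1.39 to 1.70). The opposing methyltransferase EZH2 stood at 72.8 and 95.6 CPM and the DNA methyltransferase DNMT3B at 330 and 274 CPM, with 126 to 146 CPM in the mixed culture.

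Of 80 measured cytosolic ribosomal protein genes 76, or 95%, were kept, with a median of 0.18, against 57.1% of all measured genes. Glycolysis genes were kept in 12 of 21 cases and higher in 9 (median 0.54), with GAPDH at 2210 and 3089 CPM and PKM at 1132 and 1652 CPM. Cholesterol synthesis genes were kept in 10 of 16 cases, so both lists had kept shares at or near that of all measured genes, 57.1% and 62.5%. The 13 protein genes of the mitochondrial genome were kept in 4 cases and higher in 9 (median 0.70), along with the larger mitochondrial share of that library.

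**Figure D4:**
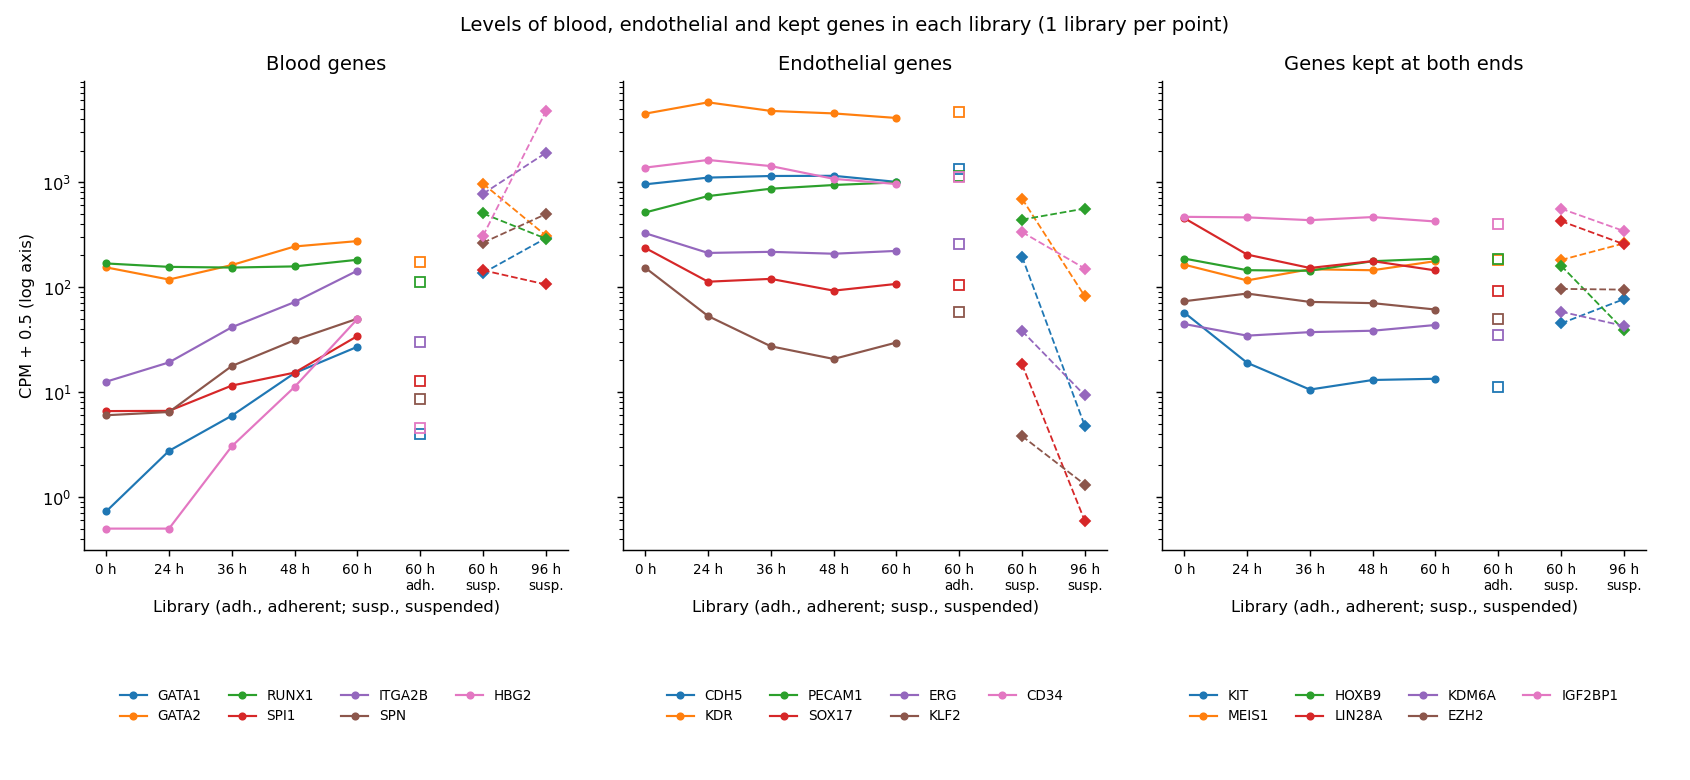
CPM + 0.5 on a log axis of 7 blood, 7 endothelial and 7 kept genes in 8 libraries made with vitamin C: circles joined by lines are the 0 h cells and the mixed culture, open squares the adherent cells and diamonds the suspended cells (1 library per point). GATA1, ITGA2B, SPN, SPI1 and HBG2 climb through the mixed culture while RUNX1 stays level, KDR and CDH5 are low in the suspended cells alone, and KIT and LIN28A dip between endpoints with like levels.

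The classes were chosen from the 0 h and the suspended 60 h libraries, so by rule all 411 gained genes stand at 5 CPM or more in the latter and all 719 lost genes in the former. Their levels in the other libraries are a description. Of the 411 gained genes, 138 stood at 5 CPM or more at 0 h, and 170, 183, 224 and 271 did so in the mixed culture at 24, 36, 48 and 60 h. The adherent cells had 189 and the suspended cells at 96 h had 350. Among the 273 that were under 5 CPM at 0 h, 53 first reached it at 24 h, 13 at 36 h, 31 at 48 h and 46 at 60 h, and 130 did not reach it in the mixed culture. Their share of the reads was 1.17% in the mixed culture and 0.769% in the adherent cells at 60 h, and 6.30% in suspension at 96 h.

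Of the 719 lost genes, 638 stood at 5 CPM or more in the 0 h library made without vitamin C. So did 7094 of the 7329 kept genes, so a high share there was not particular to lost genes. Lost genes at that level numbered 479 to 499 in the mixed culture, with no lower value at 60 h than at 36 h. Their number was 505 in the adherent cells, 320 in the suspended cells at 60 h and 171 at 96 h. The median level of the 719 lost genes was 28.6 CPM at 0 h and 13.8 to 15.1 CPM in the mixed culture. It was 17.1 CPM in the adherent cells and 3.88 CPM in the suspended cells. COL1A2, SOST and KLF2 belong to those low already at 24 h, while KDR, CDH5, MMRN2 and ID3 were within 1.5-fold of their 0 h level in these attached libraries. Of the 651 lost genes listed for the sorted libraries, 600 were at 1 TPM or more in all 4, a share not set beside that of all measured genes.

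**Figure D5:**
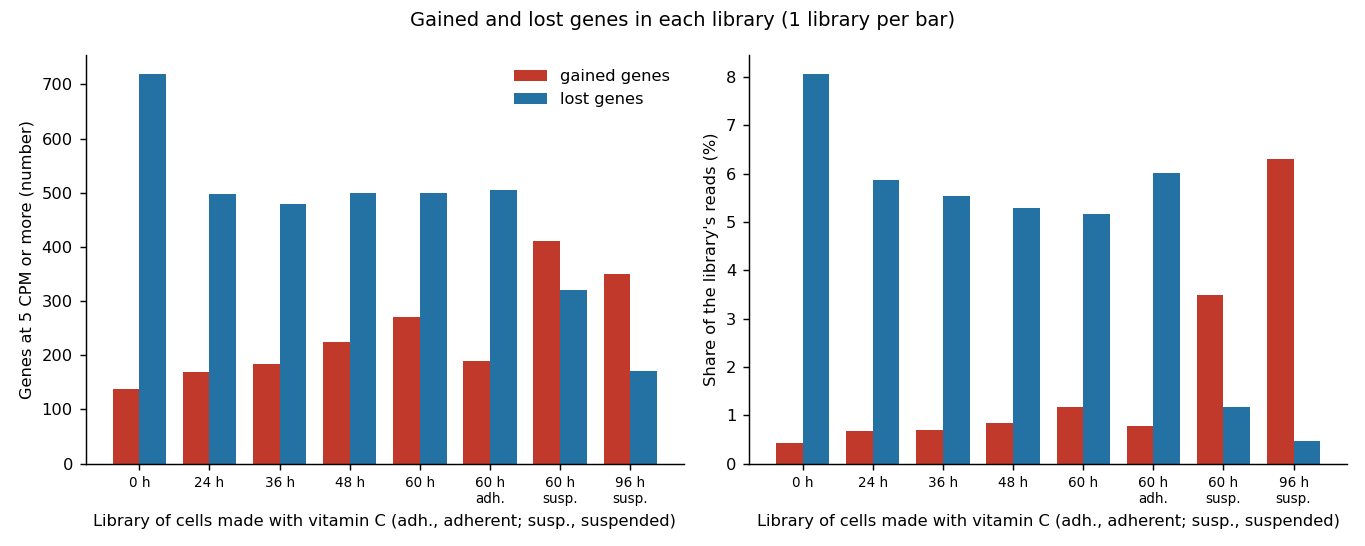
Number of gained and lost genes at 5 CPM or more (left) and their share of all reads in per cent (right) in each library made with vitamin C, both axes starting at 0. The values of 411 and 719 at the chosen endpoints are set by the rule; between them gained genes number 170 to 271 in the mixed culture, and lost genes 479 to 505 in the attached libraries after 0 h and 171 in suspension at 96 h.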

How the data were processed

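RNA was extracted with Trizol and libraries were made with a TruSeq kit from 1 µg of total RNA, per the labels' protocols. The authors deposited raw read counts per Ensembl gene for 13 libraries. For the 4 sorted libraries the authors deposited TPM values, used only as levels. HISAT2 2.0.4, SAMtools 1.3.1, HTSeq 0.6.0, DESeq 1.18.1 and hg38 are named in the submitters' processing notes, with no role given. The annotation and the strand setting are not given in the sources used here, so antisense and overlapping genes cannot be told apart. Genes were named and placed with GENCODE 29 (GRCh38), and library totals gave the CPM. The ratio was log2 of (CPM + 0.5) in the suspended cells over (CPM + 0.5) at 0 h, and intervals were exact binomial 95% intervals of the ratio of counts. A fold against a library with no read was computed against 3 reads in that library and written as "at least". No test was possible with 1 library per group. Python 3.11.15 with numpy 2.4.6, scipy 1.17.1 and pandas 2.3.3 was used, and R 4.3.3 with edgeR 4.0.16 for TMM factors. The code was tested on simulated data.

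The comparison and the gene lists were chosen with earlier results of these data known. Named were the 15 largest ratios in each direction among genes with at least 20 CPM, the 15 highest kept genes of the lists, 21 set genes, and from each list up to 6 gained, 6 lost and 4 kept members, 210 genes in all, of which the text describes those with a known role. List members named as higher, lower or not counted, such as LYZ, CD79B, VIM and AIF1, were chosen after their values were seen. Some genes are not reported here. The alternatives were other scalings, added values, level and fold limits, and other start and end libraries.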

Additional observations from a re-analysis of the deposited data

How the results depend on the processing

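Counts of genes depended on the limits and on the end library. With 5 CPM added, 204 genes were gained and 276 lost, and 42.5% of the called genes were gained ones, against 36.4% with 0.5 CPM added. With at least 20 CPM the counts were 250 and 432, at 2-fold 1266 and 1773, and at 8-fold 203 and 236. Kept genes numbered 15371 with any count allowed and 4528 within a limit narrower than 1.5-fold. With the 96 h suspended library as the end, 667 were gained and 1416 lost. Counts stayed within 1.5 times with TMM, median of ratios, totals without mitochondrial genes, 0.1 CPM added, a limit of 1 CPM, the whole counting interval past 4-fold and the 0 h library made without vitamin C as the start. A count does not say which genes: with that start, which shares the suspended library, 315 of the 411 gained genes (76.6%, and 75% of the 420 gained then) and 479 of the 719 lost genes (66.6%, and 66.2% of 724) were called again. Counts stayed within 1.5 times too without the genes hardly counted at 0 h, an alternative chosen after seeing the data.

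With 5 CPM added, list medians of the log2 ratio were -1.33 for endothelial surface genes, -0.90 for endothelial transcription factors, 1.46 for haematopoietic transcription factors, 3.89 for globins, 2.25 for platelet genes, 1.36 for myeloid, 1.09 for lymphoid, -1.34 for guidance, -2.76 for cardiac and 0.61 for heat shock genes, the last also 0.63 with median of ratios. Mitochondrially encoded genes had 0.67 with TMM, 0.64 with median of ratios and 0.74 without mitochondrial totals. No list median changed sign, and of the 210 named genes 14 to 73 moved past their counting interval per setting. No paired analysis was possible because each group holds 1 library, and for the same reason no replicate could be left out. Depth limits what is called absent: a count of 0 allows up to 0.344 CPM at 0 h and 0.431 CPM in the suspended cells.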

Other observations

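Some genes stood well above or below both endpoints between them, whether or not the endpoints had like levels. At 24, 36 and 48 h alike, 34 genes stood at least 4-fold above both endpoints, 13 of them kept between the endpoints, and 22 stood at least 4-fold below both, 14 of them kept. The genes of this section were chosen after their values were seen. APLN, the ligand of the apelin receptor, stood at 7.35 CPM at 0 h, 303, 211 and 193 CPM in the mixed culture at 24, 36 and 48 h, and 18.4 CPM in the suspended cells at 60 h. AKAP12, a scaffold protein of signalling kinases, stood at 228 CPM, then 2576, 2272 and 1676 CPM, and 310 CPM in suspension. ESM1, a marker of sprouting endothelium, had 18.1 CPM, then 386, 283 and 72.8 CPM, and 12.2 CPM. In the other direction RIPOR3 stood at 93.4 CPM, then 17.1, 13.4 and 22.6 CPM, and 140 CPM in suspension.

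The suspended cells at 96 h differed from those at 60 h. Of the 411 gained genes 110 were at least 2-fold higher at 96 h than at 60 h, 80 at least 2-fold lower and 221 within 2-fold. Of the 719 lost genes 56, 368 and 295 were so. Both classes were chosen on their 60 h level, and the same counts over all measured genes were not made. These numbers therefore describe the libraries and are no result about the classes. MMP9, a matrix protease of myeloid cells, was among 31 gained genes that at 96 h were at most 2-fold above 0 h. It stood at 11.1 CPM at 0 h, 54.9, 177, 340 and 733 CPM in the mixed culture, 858 CPM in the adherent mixture, 146 CPM in suspension at 60 h and 7.14 CPM at 96 h, so its highest level was in attached cells. CLEC1B, a receptor of platelets and lymphatic growth, was lost at 60 h but not at 96 h, with 39.8 CPM at 0 h, 0.144 CPM at 60 h and 45.8 CPM at 96 h. It was 1 of 18 such genes, and CD69, an early activation antigen of lymphocytes, another, with 37.2, 6.04 and 36.9 CPM.

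For TCF20 the call turns on which 0 h library the suspended cells are set against. This widely expressed chromatin factor was gained from 0.689 to 67.7 CPM, but stood at 42.1 CPM in the 0 h library made without vitamin C, at 18.9 to 32.6 TPM in the sorted libraries and at 0.0904 CPM in suspension at 96 h. It was among 37 gained genes under 5 CPM in every other count library with vitamin C.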
